A study of Homo sapiens with 6 samples.

Results

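The interleukin 6 (IL6) family and its STAT3 pathway were examined in MDA-MB-231 cells through 10 genes, chosen by symbol from the 16258 genes of the deposited table. They were the ligands IL6, LIF and IL11, the receptor chains IL6R, IL6ST, LIFR and OSMR, the transcription factor STAT3, and 2 of its target genes, SOCS3 and CEBPD. All 10 were found. MDA-MB-231 is an established line from a triple-negative human breast cancer. Cells grown in serum-containing medium were seeded in microfluidic devices and the highly motile ones were collected as the migratory group, which was compared with the unsorted population. Each group had 3 samples of 1000 cells, all of 1 line with no genetic change or drug. Whether replicates were separate cultures is not stated, and every p-value below therefore describes spread among these 6 samples that may be technical. Selection for motility and any difference in handling go together with the group and cannot be told apart.

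Cytokines of this family bind a private receptor chain and then share the signalling chain gp130, which IL6ST encodes. IL6 uses IL6R, which also acts as a shed soluble form, IL11 uses IL11RA, LIF pairs gp130 with LIFR, and oncostatin M pairs it with OSMR. The receptor complex activates JAK kinases, which phosphorylate STAT3, and STAT3 then switches on genes that include its own feedback inhibitor SOCS3 and the transcription factor CEBPD. In triple-negative breast cancer lines IL6 is a well-known autocrine cytokine.

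The values are normalised read counts, reads per gene divided by a size factor for each sample, with no scaling for gene length. Reads counted in the deposited genes ranged from 32789072 to 74227978 per library in unsorted and from 27032454 to 34511537 in migratory cells. Markers of the line were as labelled. The mesenchymal filament gene VIM was at 13455 to 15851 in unsorted and 17418 to 20315 in migratory libraries. The epithelial cadherin CDH1 was at 0 to 28.3 in the 6 libraries. All 6 genes listed as high in this line had log2 fold changes above 0, and 0 passed the limma test described below. For 4 of them the groups did not overlap, all higher, against 11.3% of all tested genes. GATA3, a luminal factor listed among those low in this line, was at 349 to 642. Of the markers of other cells, 4 of 8 fibroblast genes were measured, with COL1A1 at 282 to 540 in unsorted and 90.0 to 255 in migratory cells. Their summed level was 1936 to 3611 in unsorted and 537 to 1707 in migratory libraries. Of 12 blood cell genes 2 were measured, CD14 and LYZ, with a sum of 307 to 411 in unsorted and 28.5 to 112 in migratory libraries and LYZ at 0 in unsorted replicate 1. Of 8 endothelial genes 5 were measured, with sums of 8432 to 11902 and 9649 to 12461. These genes went both ways, with 2 of 5 log2 fold changes above 0. ESAM, which made up most of the sum, was at 7092 to 10015 in unsorted and 9009 to 11497 in migratory libraries, and PECAM1 was at 1225 to 1850 and 562 to 942. PTPRC, the leukocyte marker, and ESR1 were looked for and are absent from the deposited genes, so they have no level here.

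In migratory cells CEBPD fell, and the other 9 genes did not pass the test. IL6 had 0.294 times its unsorted mean, SOCS3 also had a lower mean, and the shared receptor IL6ST and the ligand LIF had higher means, all without passing. IL11, LIFR, OSMR and STAT3 overlapped between groups and their means differed by little. The test was limma on log2 of the normalised read count + 1, adjusted over all 15786 genes with a mean of at least 10, and all 10 genes met that minimum. At an adjusted p of 0.05, 0 of the 10 were higher and 1 was lower, where 0.0443% of all tested genes were higher, 0.19% lower and 0.234% either. Separation without overlap was seen for 4 of the 10, namely IL6ST on the higher side and IL6, SOCS3 and CEBPD on the lower side, against 11.3% of all tested genes higher, 12.5% lower and 23.8% either. The fitted log2 fold change was above 0 for 5 of the 10 and below 0 for 5, against 48.1% and 51.9%. IL6R is among those below 0, although its migratory mean was 2.27 times its unsorted mean. DESeq2 on the recovered reads called 2 of the 10, both lower, against 5.91% of all genes, and edgeR called 1, against 0.133%. At an unadjusted p under 0.05 there were 2 higher and 3 lower, against 7.7% and 10.0%. The median log2 fold change of the 10 was 0.01, beside -0.03 over all tested genes.

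**Figure D1:**
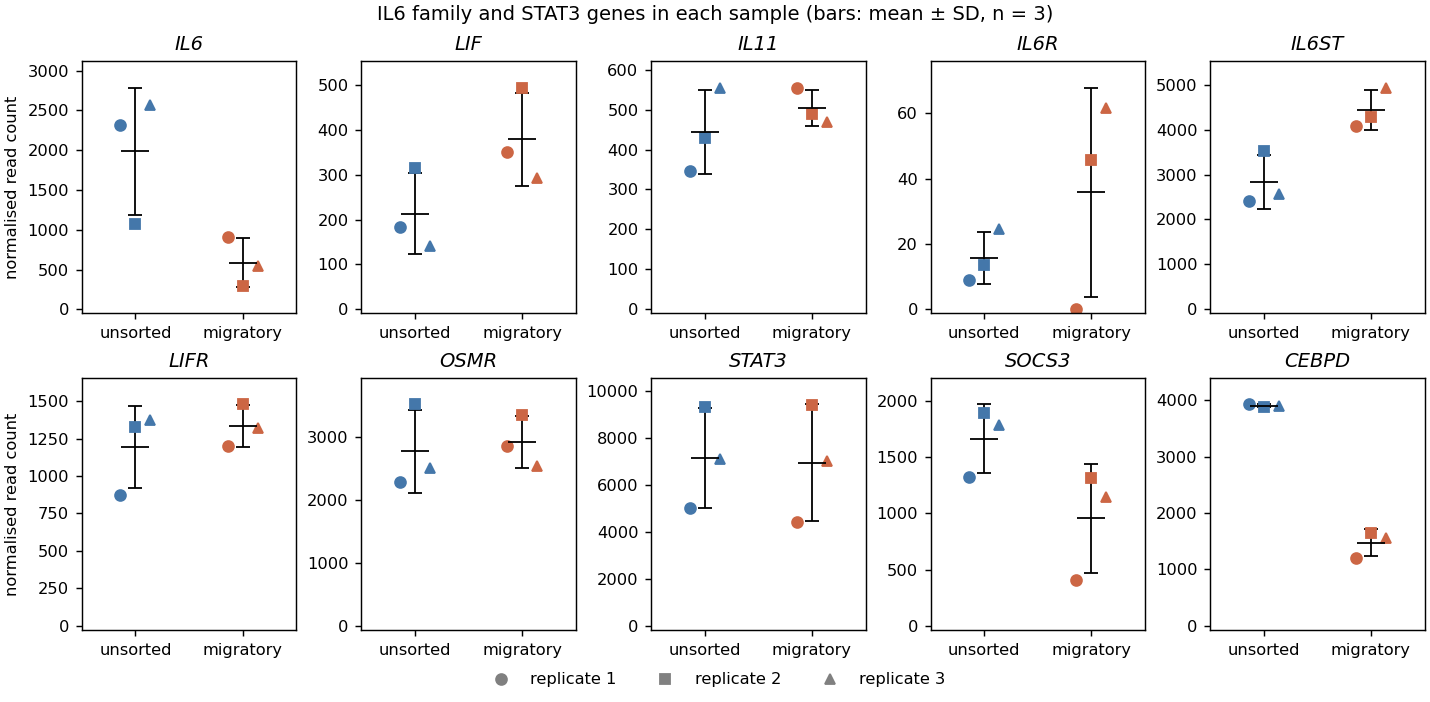
Normalised read count (y axis, from 0, own scale per gene) of the 10 genes in the 3 unsorted (blue) and 3 migratory (orange) samples. Points are samples, with a symbol per replicate number, and bars are the mean ± SD. CEBPD separates most clearly, with unsorted samples at 3887 to 3927 and migratory samples at 1196 to 1647, while STAT3 covers nearly the same range in both groups.

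IL6, the ligand that names the family (chromosome 7, 22725884 to 22732002, plus strand, GRCh38), was at 2315, 1076 and 2570 normalised read counts in unsorted replicates 1 to 3. In migratory replicates 1 to 3 it was at 908, 298 and 548. Every migratory sample was below every unsorted sample, and unsorted replicate 2 lay closest to the migratory range. The means were 1987 ± 799 and 585 ± 307 (SD, n = 3 per group), a ratio of 0.294. The log2 fold change was -1.81 (SE 0.44, 95% interval -2.79 to -0.82) with a limma adjusted p of 0.10, so IL6 did not pass. DESeq2 on the recovered reads called it lower, with an adjusted p of 0.0023, where it called 3.6% of all genes lower. A limma fit with a block for replicate number also called IL6 lower, with an adjusted p of 0.026, where it called 90 genes lower in all. Over the other fits of all 6 libraries the adjusted p ran from 0.0023 to 0.12, and with 1 library left out from 0.076 to 0.34. In bulk samples such as these, fewer cells that make a transcript and less of it per cell cannot be told apart. IL6 is also made by fibroblasts, and all samples were labelled as 1 line. The 4 measured fibroblast genes summed above had log2 fold changes below 0, and limma called 0 of them. For COL3A1 and LUM the groups overlapped, and for COL1A1 and COL1A2 they did not. DESeq2 called 1 lower, COL1A2, where it called 3.6% of all genes lower. The other listed fibroblast genes, DCN, PDGFRA, FAP and THY1, were absent from the deposited genes. Any relation of these genes to the IL6 values was not tested. Exons of an antisense gene, AC073072.1, overlap 20.7% of the IL6 exon sequence, and these libraries do not mark the strand.

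LIF, leukaemia inhibitory factor (chromosome 22, 30240447 to 30246851), was at 183, 315 and 141 normalised read counts in unsorted cells and at 350, 495 and 293 in migratory cells. Unsorted replicate 2 overlapped the migratory range, and the other two unsorted samples were below it. LIF had a log2 fold change of 0.88 (SE 0.37, 95% interval 0.05 to 1.71), with a limma adjusted p of 0.26. IL11, a ligand known for fibrosis and for bone metastasis of this line (chromosome 19, 55364389 to 55370463), was at 347, 428 and 555 in unsorted and at 555, 489 and 470 in migratory cells. The migratory values of IL11 lay inside the unsorted range. Its log2 fold change was 0.21 (95% interval -0.40 to 0.82), with a limma adjusted p of 0.72. The 3 ligands thus did not share a direction. No test of the difference between ligands was made.

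Promoter sequence was taken from RefSeq (GRCh38.p14), in which 8 of the 10 genes had a window; LIF and CEBPD are named only. The stretches of 120 bases that end just before the annotated start of IL6, IL6ST and IL11 are shown because IL6 had the lower values, IL6ST the higher ones and IL11 neither. Capitals mark a match to the NF-kB consensus in IL6 and IL6ST and to the AP-1 motif TGANTCA in IL11. Both strands were searched, and the IL6ST match reads on the strand opposite to the one shown. The stretches are chr7:22727080-22727199 (plus strand), chr5:55994964-55995083 (minus strand) and chr19:55370464-55370583 (minus strand).
IL6: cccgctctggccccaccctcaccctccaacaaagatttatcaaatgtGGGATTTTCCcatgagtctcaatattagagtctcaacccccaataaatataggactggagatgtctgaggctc
IL6ST: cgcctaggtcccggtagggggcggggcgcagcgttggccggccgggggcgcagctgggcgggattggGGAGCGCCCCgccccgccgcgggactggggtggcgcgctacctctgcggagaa
IL11: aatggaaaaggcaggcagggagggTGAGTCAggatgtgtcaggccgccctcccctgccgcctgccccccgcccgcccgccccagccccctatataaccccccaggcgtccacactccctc
The IL6 match lies 73 to 64 bases before the start, the IL6ST match 53 to 44 bases and the IL11 match 96 to 90 bases. In the 250 bases before the start, 9.96% of 35116 RefSeq windows hold the NF-kB consensus, 6.57% the AP-1 motif and 6.57% the STAT motif TTCNNNGAA. The motifs were searched separately, and each match overlaps no match to the other 2 motifs. Of the 8 genes, LIFR alone held a STAT match, in 2 of its 3 windows. The bases after the start of those 2 windows were not found in a GENCODE transcript of LIFR. They were found for its other window, which held no STAT match. For SOCS3 they were found in no window, so its lack of a match does not describe the start that GENCODE gives. IL6 and IL6ST, which both held a match to the NF-kB consensus, did not pass the test. Any relation of the motifs to the values was not tested. A match is a description of these letters only.

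IL6ST, which encodes gp130 (chromosome 5, 55935095 to 55994993), was at 2412, 3523 and 2555 normalised read counts in unsorted cells. In migratory cells it was at 4089, 4283 and 4938. All 3 migratory samples were above all 3 unsorted samples. The means were 2830 ± 604 and 4437 ± 445 (SD, n = 3 per group), a ratio of 1.57. The log2 fold change was 0.66 (SE 0.21, 95% interval 0.20 to 1.13) and the limma adjusted p was 0.16, so the gene did not pass. With 1 library left out the log2 fold change ran from 0.56 to 0.83, above 0 each time. An antisense gene overlaps 8.58% of its exon sequence, and a processed pseudogene, IL6STP1 on chromosome 17, could share its reads; the sources used here do not give how such reads were counted.

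The receptor chains that pair with gp130 showed no separation. OSMR, the oncostatin M receptor (chromosome 5, 38845858 to 38945596), was at 2295, 3529 and 2513 in unsorted and at 2871, 3360 and 2546 in migratory cells. Its log2 fold change was 0.09 (95% interval -0.41 to 0.60), with a limma adjusted p of 0.86. LIFR, the LIF receptor (chromosome 5, 38474963 to 38608354), was at 875, 1328 and 1375 in unsorted and at 1199, 1478 and 1320 in migratory cells. Its log2 fold change was 0.18 (95% interval -0.37 to 0.73), with a limma adjusted p of 0.73. Both ranges overlap between groups, and the intervals leave room for changes of either sign.

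IL6R, the private chain for IL6 (chromosome 1, 154405193 to 154469450), was the least read of the 10 genes. It had 8, 28 and 30 reads in unsorted replicates 1 to 3 and 0, 32 and 54 reads in migratory replicates 1 to 3. The normalised read counts were 9.13, 13.7 and 24.5 in unsorted and 0, 45.8 and 61.6 in migratory cells. Migratory replicate 1 was the lowest of all 6 libraries and the other two migratory samples were the highest. A count of 0 there allows up to 3.70 normalised read counts (3 reads, counting error only). The log2 fold change was -0.12 with a 95% interval of -3.33 to 3.09, and a limma adjusted p of 0.98. It was 1.80 without migratory replicate 1 (adjusted p of 0.26) and 0.23 without unsorted replicate 3, so its direction rested on single libraries and no change was detectable at this depth. A processed pseudogene, IL6RP1 on chromosome 9, could share its reads.

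STAT3, the transcription factor of the pathway (chromosome 17, 42313324 to 42388568), was at 5022, 9295 and 7082 normalised read counts in unsorted cells. In migratory cells it was at 4413, 9390 and 6996. The ranges were nearly the same, and the spread within a group exceeded the difference between means. The log2 fold change was -0.06 (95% interval -0.74 to 0.61), with a limma adjusted p of 0.93. The table measures STAT3 transcripts and says nothing of its phosphorylation.

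SOCS3, the feedback inhibitor that binds gp130 and JAK kinases (chromosome 17, 78356778 to 78360077), was at 1319, 1890 and 1783 in unsorted and at 403, 1312 and 1146 in migratory cells. Migratory replicate 1 was far below the rest, and migratory replicate 2 lay just under the lowest unsorted sample. The means were 1664 ± 304 and 954 ± 484 (SD, n = 3 per group). The log2 fold change was -0.96 (SE 0.41, 95% interval -1.87 to -0.04) with a limma adjusted p of 0.27, and SOCS3 did not pass. Without migratory replicate 1 it was -0.42.

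CEBPD, a basic leucine zipper factor that STAT3 induces in the acute phase response and in mammary epithelium (chromosome 8, 47736909 to 47739086, a single exon), fell in migratory cells. It was at 3927, 3887 and 3901 normalised read counts in unsorted replicates 1 to 3 and at 1196, 1647 and 1560 in migratory replicates 1 to 3. The lowest unsorted sample was above the highest migratory sample by more than the whole range of either group. The means were 3905 ± 20.1 and 1468 ± 239 (SD, n = 3 per group), a ratio of 0.376. Its log2 fold change was -1.42 (SE 0.20, 95% interval -1.88 to -0.97) with a limma adjusted p of 0.031. The unsorted SD of 20.1 was below the counting error of a single library, 43.6 to 67.0, and limma's SE draws its variance towards that of genes of like level. edgeR and DESeq2 on the recovered reads also called CEBPD lower, with adjusted p of 0.047 and 1.1e-08. The call held without migratory replicate 1 (adjusted p of 0.042). It was lost without unsorted replicate 1 (0.16), 2 (0.082) or 3 (0.17) and without migratory replicate 2 (0.067) or 3 (0.076), while the log2 fold change stayed between -1.51 and -1.28.

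**Figure D2:**
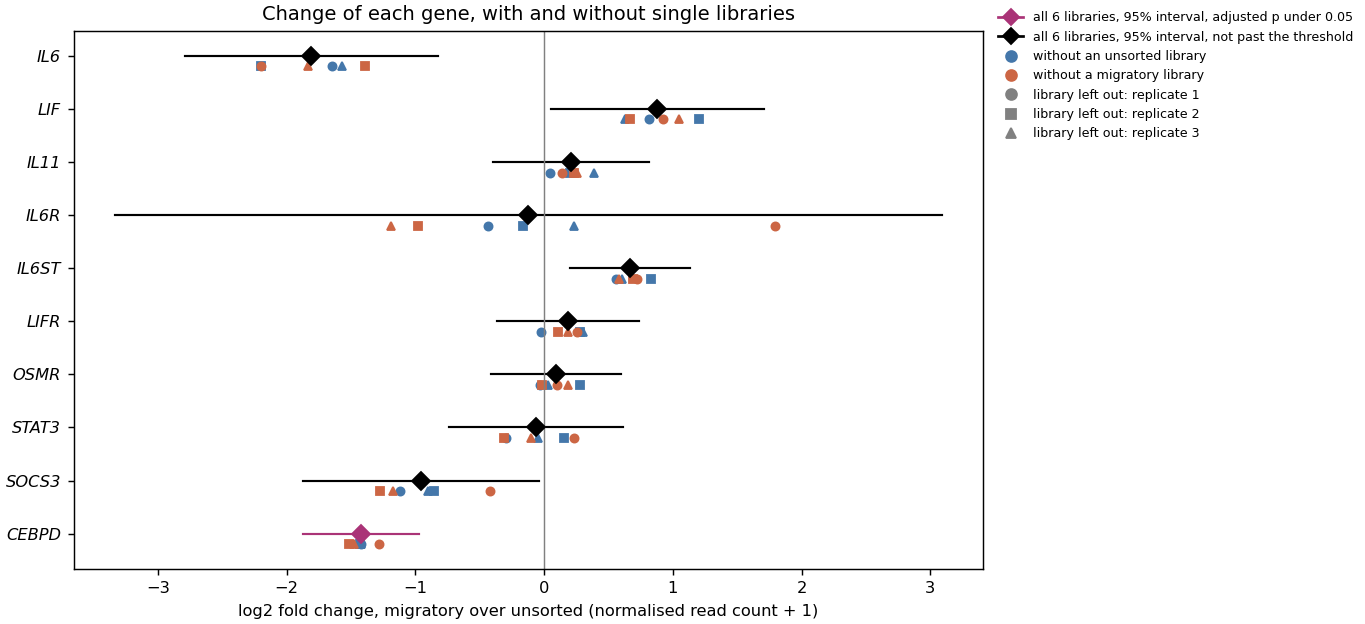
Log2 fold change of migratory over unsorted cells (x axis) for the 10 genes. Diamonds with lines are the fit of all 6 libraries with its 95% interval, and the small symbols below each are the same value with 1 library left out. The CEBPD, IL6 and SOCS3 values stay below 0 and the LIF and IL6ST values above 0 throughout, while IL6R moves from -1.19 to 1.80.

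Set side by side per length, as mean normalised read count per kilobase of merged exon, the order of the 10 genes differed between groups. In unsorted cells CEBPD was highest at 1793 ± 9.24 per kilobase, followed by IL6 at 960 ± 386, STAT3 at 809 ± 243 and SOCS3 at 609 ± 111 (SD, n = 3). IL6, STAT3 and SOCS3 overlapped one another, so their order is not resolved. OSMR at 387 ± 91.8 overlapped both SOCS3 above it and IL6ST, at 305 ± 65.0, below it. IL11 at 166 ± 39.3 was above LIFR at 101 ± 23.3 and LIF at 53.6 ± 22.8, of which LIFR and LIF overlapped by sample. IL6R was last at 2.44 ± 1.22.

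In migratory cells STAT3 had the highest level per kilobase at 787 ± 282, followed by CEBPD at 674 ± 110, IL6ST at 477 ± 47.9 and OSMR at 408 ± 57.1. STAT3 overlapped CEBPD and IL6ST overlapped OSMR, while CEBPD stayed above IL6ST in every sample. Next came SOCS3 at 349 ± 177 and IL6 at 283 ± 148, each of which overlapped OSMR. IL11 was at 189 ± 16.7, LIFR at 112 ± 11.8, LIF at 95.6 ± 26.3 and IL6R at 5.55 ± 4.96. LIFR and LIF overlapped again. The private chain IL6R was read at a level far below that of gp130 in every library of both groups. Among the ligands IL6 had the highest level per kilobase in every unsorted library. In migratory cells its range, 144 to 439, overlapped that of IL11, 176 to 208.

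**Figure D3:**
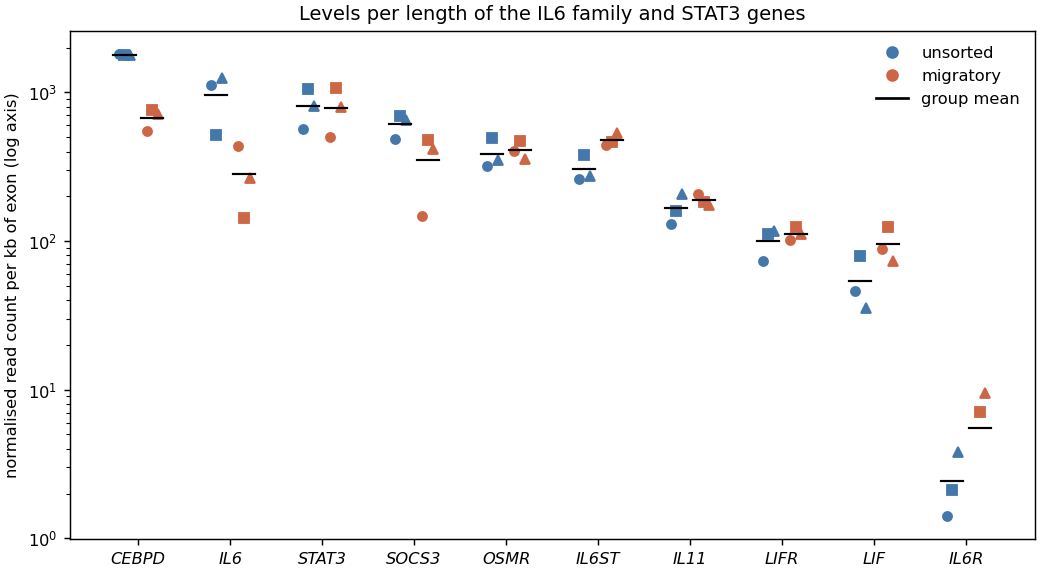
Normalised read count per kilobase of merged exon (y axis, log scale) of the 10 genes, ordered by unsorted mean. Points are samples (blue unsorted, orange migratory) and bars are group means; the value of 0 for IL6R in migratory replicate 1 enters its mean and is not drawn. CEBPD and IL6 stand first and second in unsorted cells and second and sixth in migratory cells.

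The lower values of 1 migratory library bear on several of these genes. Migratory replicate 1 had the lowest value of its group for 6 of the 10 genes and for 37 of 62 tested genes of the pathway lists that follow, or 59.7%, against 37.2% of all tested genes. It also listed 614 genes at 0, the most of the 6 libraries. This comparison was chosen after the values were seen, and what it does to the results is given by the values without that library.

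The wider pathway was described with 7 lists, which held 62 tested genes counted once each. The lists were chosen with earlier results of these data known, so their counts are a description only. Of these 0 were higher and 2 were lower in limma, FOS and ICAM1, and their median log2 fold change was -0.30 beside -0.03 over all tested genes. Values did not overlap for 5 of the 62 on the higher and 15 on the lower side, against 11.3% and 12.5% of all tested genes. Among 17 tested further targets of STAT3, FOS, a subunit of AP-1 that cytokines and growth factors both induce, fell from 3700 ± 851 to 582 ± 41.7 (limma adjusted p of 0.0058). ICAM1, an adhesion receptor for leukocytes, fell from 6706 ± 600 to 2057 ± 501 (0.022). Both are also induced by other pathways, and ICAM1 exons are overlapped over 22.0% of their length by an antisense gene. The next by p was BCL3, an atypical IkB protein, at 3088, 2081 and 3713 in unsorted and 717, 917 and 1310 in migratory cells (limma adjusted p of 0.062, not past the threshold). DESeq2 called 1 of the 17 higher, CCND1, and 4 lower, where it called 3.6% of all genes lower and 5.91% either way. CCND1 was at 5395, 5778 and 6534 in unsorted and 8511, 13239 and 12680 in migratory cells (limma adjusted p of 0.081, not past the threshold). Values went both ways in this list, with 5 of 17 above 0 and a median of -0.29, and leaving out unsorted replicate 1 or 3 gave -0.60 or -0.18, while leaving out migratory replicate 1 or 3 gave -0.06 or -0.52. FOS was called with 1 library left out except without unsorted replicate 1 or 3, and ICAM1 only without migratory replicate 1 or 2.

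All 5 measured acute phase genes, of 18 listed, had lower values in migratory cells, and 0 passed in limma or in edgeR. At an unadjusted p under 0.05 all 5 were lower, against 10.0% of all tested genes. This list too was chosen with earlier results known, so the share is not independent support. DESeq2 called 3 lower, SAA2, SERPINA1 and SERPINA3, against 3.6%. These are secreted proteins that IL6 and C/EBP factors induce in the liver. SAA2, a serum amyloid A, was at 1663, 824 and 961 in unsorted and at 454, 338 and 255 in migratory cells (limma adjusted p of 0.075). SERPINA1, the elastase inhibitor alpha-1 antitrypsin, was at 3438, 2590 and 2567 and at 717, 1717 and 1364 (0.11). SERPINA3, alpha-1 antichymotrypsin, was at 65.1, 39.6 and 23.6 in unsorted cells and at 7.40, 0 and 0 in migratory cells (0.11). The groups did not overlap for these 3 of the 5 genes, all lower, against 12.5% of all tested genes. The 3 were picked by smallest p, so this adds little to the p-values. SAA1 and SAA2 are near-identical copies, and the sources used here do not give how shared reads were counted. Exons of SERPINA3 are overlapped over 31.8% of their length by AL049839.2.

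Of the other genes listed as C/EBP factors 4 were measured, and limma and edgeR called 0. The mean was higher in migratory cells for 3 of them and lower for CEBPB. At an unadjusted p under 0.05 there were 2 higher, CEBPG and DDIT3, against 7.7% of all tested genes. DESeq2 also called these 2, where it called 5.91% of all genes in either direction. CEBPG, a partner of other C/EBP and ATF4 proteins, was at 1600, 1696 and 1431 in unsorted and 2522, 2673 and 3603 in migratory cells (limma adjusted p of 0.10). DDIT3, the stress factor CHOP, was at 1060, 898 and 1225 and at 2203, 1468 and 2261 (0.13), and its exons are overlapped over 27.2% of their length by another gene. CEBPZ, listed for its symbol, was at 5402, 3330 and 3707 and at 5124, 5696 and 4156 (0.54). CEBPB, the C/EBP factor that IL6 is best known to activate, was at 633, 523 and 1592 in unsorted and at 780, 535 and 1361 in migratory cells, with overlapping groups (0.98). Its log2 fold change was 0.04 although its mean was slightly lower in migratory cells, 892 ± 424 against 916 ± 588 (SD, n = 3 per group). Differences between CEBPD and these 4 genes were not tested.

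Among 8 measured ligands and receptors of the gp130 family outside the 10, limma and edgeR called 0. DESeq2 called 1 lower, EBI3, where it called 3.6% of all genes lower. At an unadjusted p under 0.05 there was 1 in each direction, against 7.7% higher and 10.0% lower over all tested genes. EBI3, a subunit of interleukins 27 and 35, was at 168, 148 and 205 in unsorted and 62.9, 83.0 and 63.8 in migratory cells (limma adjusted p of 0.12). IL31RA, a gp130-like receptor that pairs with OSMR, was at 434, 645 and 408 and at 671, 950 and 1096 (0.18). IL11RA, the private chain for IL11, was at 188, 187 and 202 and at 30.8, 136 and 151 (0.32). In these 3 of the 8 genes, picked by smallest p, the groups did not overlap. Of them 1 was higher and 2 were lower, against 11.3% and 12.5% of all tested genes. The list median was -0.46. It was -0.11 without migratory replicate 1, -0.13 without unsorted replicate 2 and -0.51 without migratory replicate 2, the ends of its range being -0.51 and -0.11.

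Of 10 JAK kinases and other STAT factors limma, edgeR and DESeq2 called 0. At an unadjusted p under 0.05 there were 0 higher and 2 lower, against 7.7% and 10.0% of all tested genes. STAT5A was at 539, 893 and 739 in unsorted and 143, 408 and 467 in migratory cells (limma adjusted p of 0.20). JAK3 had a mean of 36.0 ± 21.0 in unsorted cells and was at 0, 27.2 and 0 in migratory cells (0.24). JAK1, the main kinase of gp130, was at 2810, 4161 and 2794 and at 3947, 5357 and 4273 (0.29). The list median was -0.44. With 1 library left out it ran from -0.62 (without migratory replicate 2) to -0.16 (without migratory replicate 1).

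Of 14 negative regulators limma and edgeR called 0 and DESeq2 called PTPN11 higher, against 5.91% of all genes in either direction. At an unadjusted p under 0.05 there were 1 higher and 2 lower of the 14, near the 7.7% and 10.0% of all tested genes. PTPN11, the phosphatase SHP2 that competes with SOCS3 for the same docking site of gp130, was at 2602, 2570 and 2766 in unsorted and 3757, 4484 and 4650 in migratory cells (limma adjusted p of 0.12). PTPN6, the phosphatase SHP1, was at 195, 143 and 226 and at 13.6, 38.6 and 116 (0.15). SOCS1, another inhibitor of JAK kinases, was at 379, 258 and 306 and at 173, 210 and 157 (0.22). The groups did not overlap for these 3 genes, which were picked by smallest p. In the whole list 1 of 14 was higher without overlap, PTPN11, and 4 were lower, against 11.3% and 12.5% of all tested genes. The list median was 0.10, and leaving out unsorted replicate 2 or 3 gave 0.02 or 0.04, while leaving out migratory replicate 1 or 2 gave -0.09 or -0.02.

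Among 5 genes of receptor shedding limma and edgeR called 0. DESeq2 called 1 lower, TIMP3, where it called 3.6% of all genes lower. At an unadjusted p under 0.05 there were 2 lower, against 10.0% of all tested genes. TIMP3, the inhibitor of the sheddase ADAM17, was at 60368, 78457 and 80406 in unsorted and 29876, 37942 and 48241 in migratory cells, with no overlap (limma adjusted p of 0.076). RHBDF1, a carrier of ADAM17, was at 2933, 4932 and 4665 and at 1541, 3442 and 2633 (0.25). RHBDF2 was at 2382, 2958 and 1151 and at 1184, 2598 and 1570 (0.77). The list median was -0.25. Without unsorted replicate 1, 2 or 3 it was -0.15, 0.03 or -0.65, and without migratory replicate 1 or 2 it was -0.08 or -0.56.

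**Figure D4:**
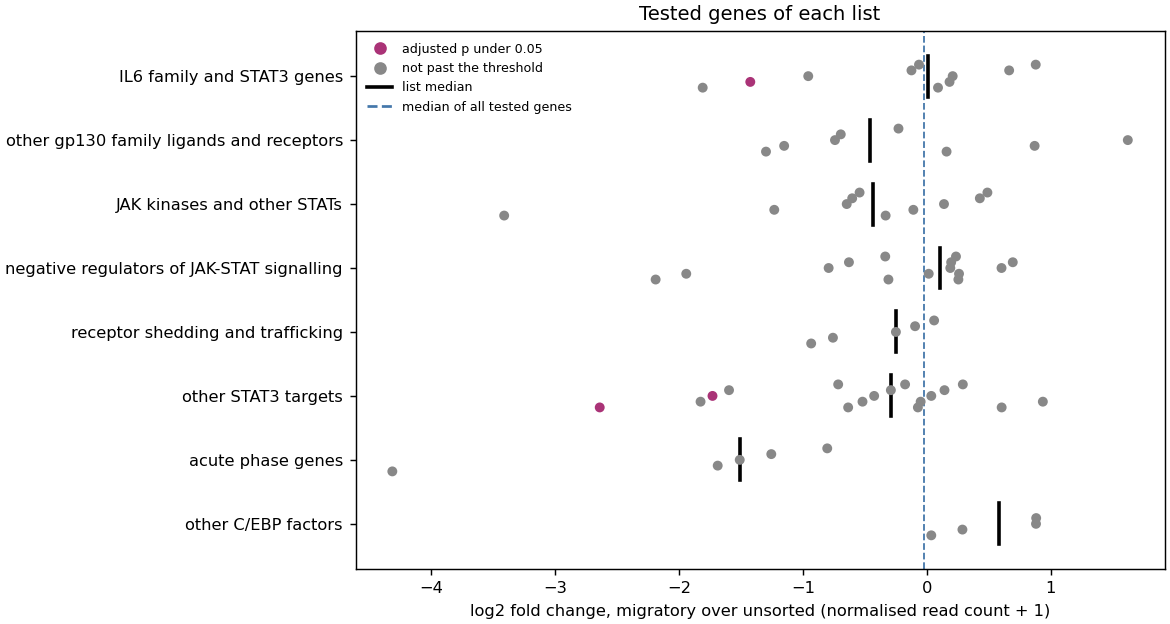
Log2 fold change of migratory over unsorted cells (x axis) for each tested gene of the 10-gene set and of 7 lists. Black bars are list medians, the dashed line is the median of all tested genes at -0.03, and purple points are the 3 genes past an adjusted p of 0.05 (CEBPD, FOS and ICAM1). The 5 acute phase genes lie below 0 and the 4 other genes listed as C/EBP factors above it, CEBPB only by 0.04.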

How the data were processed

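RNA-seq was made from 6 samples, 3 unsorted and 3 migratory, as full-length amplified cDNA tagmented and sequenced paired-end on 4 lanes, per the labels' protocols. The deposited values are a signal, made by the authors from counts of reads in each gene and scaled by a size factor for each sample. The submitters' processing notes name HISAT2, HTSeq and DESeq2 with hg38 and GRCh38.p7; versions, settings and annotation are not given in the sources at hand. The chemistry marks no strand and has no molecular identifiers, so floors cover counting error only.

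All values (100%) were whole multiples of 1 read within 0.01 read, which gave back the reads; the size factors they imply lay within 0.223% of the median-of-ratios ones. Replicates differed beyond sampling noise, at 44.1 to 152 chi-square units for each degree of freedom, and none was merged.

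Genes with a mean of at least 10 (15786, with 472 removed) were tested with limma 3.58.1 (R 4.3.3, intensity trend, two-sided) on log2 of the value + 1. Benjamini-Hochberg adjustment was over all of them at 0.05. For low genes with values of 0 the fitted change can depart from the ratio of means either way. JAK3 had -3.41 at a ratio of 0.252, and IL6R -0.12 at a ratio of 2.27. The quasi-likelihood test of edgeR 4.0.16 and DESeq2 1.42.0 were run on the recovered reads as alternatives, beside other pseudocounts, filters, scalings, a replicate block and single libraries left out. The fitting code was tested on simulated data. The members and lists were chosen with earlier results of these data known. Named genes were the 10 members and, per list, genes past the threshold and the 3 smallest p. GATA3, CD14, LYZ and CCND1 were named after values were seen. Positions and merged exon lengths come from GENCODE release 29 (GRCh38), matched by symbol for 179 of 182 listed genes; promoters come from RefSeq.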

Additional observations from a re-analysis of the deposited data

How the results depend on the processing

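The count of all genes past the threshold was 37, and 68 with a pseudocount of 5, 78 with a minimum mean of 50, 85 with upper-quartile scaling, 21 in edgeR and 933 in DESeq2; without unsorted replicate 1, 2 or 3 it was 1, 2 or 1, and without migratory replicate 1, 2 or 3 it was 44, 15 or 14. Of the 10 genes 1 passed, 2 in DESeq2 (CEBPD and IL6), and 0 to 1 with 1 library left out. In the pathway lists 2 of 62 passed, 13 in DESeq2 (which called 5.91% of all genes), and 0 to 3 with 1 library left out. The cause of these differences was not tested, beyond the fewer samples or fewer genes some settings use. The replicate block gave 114 genes in all, 2 of the 10 (CEBPD and IL6, adjusted p of 0.026 each) and 5 in the lists. Whether replicate numbers pair the samples is not settled by these data. Deviations from the group means correlated at 0.12, 0.11 and 0.04 for same-numbered samples. For samples of different number the correlations ran from -0.16 to 0.07. Replicates 1 and 2 of both groups correlated best with their own number. Unsorted replicate 3 and migratory replicate 3 did not. IL6R turned to 0.37 with a pseudocount of 5, 1.17 in edgeR and 1.18 in DESeq2, and ran from -1.19 to 1.80 with 1 library left out. In the same way LIFR ran from -0.025 to 0.30, OSMR from -0.035 to 0.28 (-0.01 without migratory replicate 2) and STAT3 from -0.32 to 0.23 (0.15 without unsorted replicate 2). LIF, IL11, IL6ST, SOCS3, IL6 and CEBPD kept their sign in all 15 alternatives. With 3 samples a group, the depth of IL6R limits what can be seen of it.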

Other observations

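Cytokines and receptors outside the gp130 family were also read. Among 13 tested cytokines limma and edgeR called 0 genes. At an unadjusted p under 0.05 there was 1 higher and there were 3 lower, against 7.7% and 10.0% of all tested genes. DESeq2 called IL24 higher and CSF1 lower, where it called 5.91% of all genes in either direction. CSF1, the macrophage growth factor, was at 40332, 46453 and 54232 normalised read counts in unsorted and at 17887, 31481 and 28688 in migratory cells (limma adjusted p of 0.10). IL24, a member of the IL10 family, was at 185, 109 and 154 and at 670, 368 and 288 (0.11). CSF3, the granulocyte growth factor, was at 30.8, 15.1 and 110 and at 4.93, 14.3 and 0 (0.22). The groups did not overlap for these 3 genes, picked by smallest p, with IL24 on the higher side. In the whole list 2 of 13 were higher without overlap and 3 lower, against 11.3% and 12.5% of all tested genes.

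Among 18 tested cytokine receptors limma and edgeR called 0 genes. At an unadjusted p under 0.05 there were 4 lower, against 10.0% of all tested genes. DESeq2 called 3 of these lower, where it called 3.6% of all genes lower. IFNGR1, the ligand-binding chain for interferon gamma, was at 5362, 4269 and 5439 in unsorted and at 2995, 2721 and 3558 in migratory cells (limma adjusted p of 0.13). EPOR, the erythropoietin receptor, was at 694, 606 and 1069 and at 421, 386 and 388 (0.14). IL10RB, a chain shared by several receptors of the IL10 family, was at 2233, 2104 and 2092 and at 1541, 1440 and 1225 (0.17). The groups did not overlap for these 3 genes either, which were picked by smallest p. In the whole list 1 of 18 was higher without overlap and 4 were lower, against 11.3% and 12.5% of all tested genes. Exons of another gene, AP000295.1, overlap 38.1% of the IL10RB exon sequence. The median log2 fold change was -0.19 for the receptors and -0.13 for the cytokines, beside -0.03 over all tested genes. With 1 library left out the receptor median ran from -0.34 to -0.21, moving most without migratory replicate 2 (-0.34), migratory replicate 3 (-0.29) and unsorted replicate 1 (-0.28). The cytokine median was 0.00051 without migratory replicate 2, -0.03 without unsorted replicate 2 and -0.08 without unsorted replicate 1, so its distance from the median of all genes rested on single libraries.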
